A study of Mus musculus with 8 samples.

Results

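Endothelin and adrenomedullin are vasoactive peptides with opposite classical actions on vessel tone, and the genes of their signalling axes are described here across mouse embryonic fibroblasts (MEFs), fibroblasts cultured from mouse embryos, that carried a vector for YAP or an empty vector. The set was chosen by gene name and holds 10 genes of the 48527 with a unique identifier in the per-library expression table. They are the peptide genes Edn1 and Adm, the endothelin receptor genes Ednra and Ednrb, the converting enzyme genes Ece1 and Ece2, the adrenomedullin receptor gene Calcrl, and Ramp1, Ramp2 and Ramp3, which encode the accessory proteins of that receptor. The YAP group held 4 libraries of MEFs transduced with wild-type YAP fused to a fluorescent protein, which was GFP in replicates 1 and 2 and mCherry in replicates 3 and 4. The EV (empty vector) group held 4 libraries of MEFs transduced with a control vector that encodes the reporter alone, again GFP in replicates 1 and 2 and mCherry in replicates 3 and 4. The cells of both groups were transduced by lentivirus, kept in medium with 1 ug/mL doxycycline and sorted on the reporter. The labels give neither the strain of the embryos nor whether each replicate is a culture of its own. The p-values therefore cover only the spread among these libraries, which may be technical.

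Endothelin 1 is made as a precursor that furin-type proteases and then an endothelin-converting enzyme cut to a short peptide. It acts on the G protein-coupled receptors EDNRA and EDNRB, contracts smooth muscle and is a growth and contraction signal for fibroblasts. Adrenomedullin is a vasodilator that is induced by low oxygen and acts through cyclic AMP. Its receptor is the protein encoded by Calcrl paired with a RAMP: with RAMP2 or RAMP3 the pair binds adrenomedullin, and with RAMP1 it binds calcitonin gene-related peptide. YAP, the effector of the Hippo kinase cascade, has no DNA-binding domain of its own and reaches its target genes through TEAD factors.

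Values are FPKM, which scales fragment numbers by transcript length and by the mapped fragments of the library. Levels can be compared between genes and libraries only roughly, and the absolute depth is unknown. Relative depth was estimated from values below 0.1 FPKM, with EV replicate 1 set to 1. It was 0.727 to 1.11 in YAP libraries and 0.559, 0.629 and 0.908 in EV replicates 2, 3 and 4. FPKM sums ranged from 880441 to 897659 in YAP libraries and from 733152 to 1018404 in EV libraries. The most abundant gene of each library took 22.2% to 27.4% of the sum in YAP libraries and 13.5% to 29.1% in EV libraries. Yap1 itself stood at 80.0 to 84.9 FPKM in YAP libraries and at 88.4 to 93.2 FPKM in EV libraries, so the Yap1 level does not check the labels and directions refer to the libraries as labelled. Widely used YAP targets did differ: Cyr61 stood at 741 to 931 FPKM in YAP libraries and 407 to 514 FPKM in EV libraries, and Ankrd1 at 8.61 to 10.7 FPKM in YAP libraries and 3.73 to 5.43 FPKM in EV libraries. The 16 fibroblast markers were all tested in the fit described below. Of them 3 fell (Lum, Postn and Pdgfra) and 0 rose, beside 0.821% of all genes tested that fell and 0.934% that rose. With each library left out in turn, the call was lost in 8 of 8 fits for Pdgfra. It was lost in 7 of 8 for Postn and in 2 of 8 for Lum. The summed level of the 16 markers was 10729 to 12252 FPKM in YAP libraries and 10631 to 11356 FPKM in EV libraries. Values after ± are standard deviations (SD, n = 4), and SE marks the standard error of a fitted difference.

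The genes were singled out with the YAP minus EV results in view, so their values in that contrast are a description and carry no test. Of the 10 genes, 8 had a mean of at least 1 FPKM over all libraries and entered the fit across all genes, and Ramp2 and Ramp3 did not. Edn1 passed that filter only through the YAP libraries, since its EV mean was below 1 FPKM. In that fit (limma on log2(FPKM + 0.5), adjusted p under 0.05), 2 of the 8 were called higher in YAP libraries, beside 0.934% of the 13276 genes tested, and 2 were called lower, beside 0.821%. Nothing is read from these counts, and they depend, among other choices, on the libraries: 0 of the 8 were called without YAP replicate 2, 1 without EV replicate 2 or EV replicate 4, 2 without YAP replicate 1, YAP replicate 4, EV replicate 1 or EV replicate 3, and 3 without YAP replicate 3.

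Both peptide genes were higher in YAP libraries. Edn1 (ENSMUSG00000021367, chr13:42301476-42307990, plus strand, GRCm38), which encodes endothelin 1, stood at 5.21, 4.41, 2.52 and 2.32 FPKM in YAP replicates 1 to 4 and at 1.03, 0.792, 0.349 and 0.568 FPKM in EV replicates 1 to 4. The lowest YAP library was above the highest EV library. The means were 3.61 ± 1.42 FPKM in YAP libraries and 0.685 ± 0.293 FPKM in EV libraries, a log2 difference of 1.76 (SE 0.19). The ratio of the means was 5.28 over all libraries, and likewise 5.28 within GFP and 5.27 within mCherry libraries, although the Edn1 level of the mCherry libraries was lower in both groups.

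Adm (ENSMUSG00000030790, chr7:110627661-110629820, plus strand), which encodes adrenomedullin, stood at 58.0, 70.7, 61.7 and 69.1 FPKM in YAP replicates 1 to 4 and at 36.2, 33.7, 23.3 and 24.6 FPKM in EV replicates 1 to 4. The groups did not overlap, and within EV the GFP libraries were above the mCherry libraries. The means were 64.9 ± 6.0 FPKM in YAP libraries and 29.4 ± 6.45 FPKM in EV libraries, a log2 difference of 1.15 (SE 0.13) and a ratio of 2.20. Among all 13276 genes tested, 4.63% lay higher in every YAP library than in every EV library, and 2 of the 8 tested members, Edn1 and Adm, did.

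The promoters of both peptide genes are shown because both genes were higher in the YAP libraries while they differ in the short motifs they hold. Each sequence runs from 250 bases before to 50 bases after the RefSeq start, on the strand of the gene, in GRCm38.p6 (Edn1 chr13:42301226-42301525, Adm chr7:110627407-110627706). Capitals mark matches on either strand to GGAATG, the core of the TEAD motif, to TGANTCA, the core of the AP-1 motif, or to ACGTG and GCGTG, the cores of the hypoxia response element.
Edn1: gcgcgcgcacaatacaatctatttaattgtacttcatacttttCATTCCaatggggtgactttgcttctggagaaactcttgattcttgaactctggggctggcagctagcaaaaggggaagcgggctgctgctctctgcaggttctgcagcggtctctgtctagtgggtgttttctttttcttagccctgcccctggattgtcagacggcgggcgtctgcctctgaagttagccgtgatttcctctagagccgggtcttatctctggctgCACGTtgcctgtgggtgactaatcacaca
Adm: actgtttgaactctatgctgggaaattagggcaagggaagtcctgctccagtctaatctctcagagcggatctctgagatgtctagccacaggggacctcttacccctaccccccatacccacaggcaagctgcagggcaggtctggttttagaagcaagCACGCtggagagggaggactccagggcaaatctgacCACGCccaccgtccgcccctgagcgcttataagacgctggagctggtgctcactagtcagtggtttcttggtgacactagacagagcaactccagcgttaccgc
The Edn1 window holds the TEAD core on the opposite strand, read as CATTCC from 207 bases before the start, and CACGT from 21 bases after it. The Adm window holds CACGC from 90 and from 54 bases before the start, and neither of the other motifs. Of the 32851 RefSeq promoter windows of this length, 14.7% hold the TEAD core, 7.8% the AP-1 core and 43.8% a hypoxia response core, so matches to such short words are common, and they describe the letters only.

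Both endothelin receptor genes were lower in YAP libraries. Ednra (ENSMUSG00000031616, chr8:77663031-77724464, minus strand), the receptor that mediates contraction of smooth muscle, stood at 6.28, 4.51, 7.01 and 6.37 FPKM in YAP replicates 1 to 4 and at 8.78, 10.6, 10.4 and 11.1 FPKM in EV replicates 1 to 4. All 4 YAP libraries were below all 4 EV libraries, with YAP replicate 2 the lowest. The means were 6.04 ± 1.07 FPKM in YAP libraries and 10.2 ± 0.991 FPKM in EV libraries, a log2 difference of -0.72 (SE 0.12).

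Ednrb (ENSMUSG00000022122, chr14:103814625-103844402, minus strand), the endothelin receptor that clears endothelin and that neural crest cells need for migration, stood at 6.61, 7.28, 7.88 and 6.90 FPKM in YAP replicates 1 to 4 and at 12.8, 14.7, 11.9 and 11.6 FPKM in EV replicates 1 to 4. The YAP libraries lay close together and below every EV library. The means were 7.17 ± 0.550 FPKM in YAP libraries and 12.7 ± 1.38 FPKM in EV libraries, a log2 difference of -0.79 (SE 0.10). Of the summed receptor level, Ednra made up 45.5% ± 4.90 in YAP libraries and 44.5% ± 3.76 in EV libraries, so the balance between the receptors differed by less than its spread. In such bulk samples fewer cells with a transcript and less transcript per cell cannot be told apart.

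The receptor promoters are shown for comparison with that of their ligand, with the same window, build and capitals (Ednra chr8:77724403-77724702, Ednrb chr14:103843652-103843951, both minus strand).
Ednra: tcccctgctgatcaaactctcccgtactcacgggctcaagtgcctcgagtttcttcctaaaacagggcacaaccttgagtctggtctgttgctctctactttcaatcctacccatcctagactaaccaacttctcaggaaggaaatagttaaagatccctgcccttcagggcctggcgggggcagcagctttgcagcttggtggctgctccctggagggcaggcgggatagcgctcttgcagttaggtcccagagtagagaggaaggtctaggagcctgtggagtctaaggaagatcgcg
Ednrb: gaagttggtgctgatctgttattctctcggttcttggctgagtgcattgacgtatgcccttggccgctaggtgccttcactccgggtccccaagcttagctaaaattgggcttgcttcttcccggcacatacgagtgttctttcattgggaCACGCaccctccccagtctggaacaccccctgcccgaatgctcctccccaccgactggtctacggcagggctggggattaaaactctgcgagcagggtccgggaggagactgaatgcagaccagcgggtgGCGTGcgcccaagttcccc
The Ednra window holds none of these motifs. The Ednrb window holds CACGC from 99 bases before and GCGTG from 31 bases after the start. Over the 9 of 10 genes with a RefSeq window, the TEAD core was found for Edn1 and Ramp3 and the AP-1 core for none.

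The adrenomedullin receptor gene was lower in YAP libraries, by less than the endothelin receptor genes. Calcrl (ENSMUSG00000059588, chr2:84330626-84425411, minus strand) stood at 2.08, 2.08, 2.13 and 2.47 FPKM in YAP replicates 1 to 4 and at 3.83, 2.89, 3.52 and 2.67 FPKM in EV replicates 1 to 4. The groups did not overlap, but YAP replicate 4 came close to EV replicate 4. The means were 2.19 ± 0.186 FPKM in YAP libraries and 3.23 ± 0.538 FPKM in EV libraries, a log2 difference of -0.46 (SE 0.16), which was not past the threshold of the fit. Of all genes tested, 4.83% lay lower in every YAP library than in every EV library, and 3 of the 8 tested members, Ednra, Ednrb and Calcrl, did. In either direction 5 of the 8 did not overlap between the groups, beside 9.46% of all genes.

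The RAMP genes were low or listed at 0, but in EV libraries the means of Ramp1 and Ramp3 were above the mean of Edn1. Ramp1 (ENSMUSG00000034353, chr1:91179822-91225196) stood at 1.64, 1.17, 0.924 and 3.90 FPKM in YAP replicates 1 to 4 and at 1.71, 1.07, 1.76 and 1.15 FPKM in EV replicates 1 to 4. One library, YAP replicate 4, stood well above the other 7, which overlapped. The log2 difference of Ramp1 was 0.20 (SE 0.38), and without YAP replicate 4 it was -0.16. Ramp3 (ENSMUSG00000041046, chr11:6658521-6677475) stood at 0.274, 0.707, 0.870 and 1.25 FPKM in YAP replicates 1 to 4 and at 0.614, 0.551, 0.968 and 0.843 FPKM in EV replicates 1 to 4. The EV values of Ramp3 lay within the range of its YAP values. Ramp2 (ENSMUSG00000001240, chr11:101246028-101259546), whose product pairs with the Calcrl product in vessel development, was listed at 0 in all 8 libraries.

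The zeros of Ramp2 may be failed estimates. The authors' deposited table, which gives 1 FPKM value per pooled arm, lists Ramp2 at 1.05 FPKM in the YAP arm and 1.83 FPKM in the EV arm, without a test. In all, 487 genes were listed at 0 in each of the 8 libraries and at 1 FPKM or more in both pooled arms. The gene shares 5840 bases of its span, on the same strand, with Vps25, an endosomal sorting gene that stood at 65.5 to 91.2 FPKM in YAP libraries and 60.9 to 96.1 FPKM in EV libraries, and the part of this overlap in the Ramp2 values was not tested.

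The converting enzyme genes differed little. Ece1 (ENSMUSG00000057530, chr4:137862237-137965229), the main endothelin-converting enzyme, stood at 64.6, 62.4, 57.0 and 65.3 FPKM in YAP replicates 1 to 4 and at 53.4, 55.2, 51.0 and 57.0 FPKM in EV replicates 1 to 4. YAP replicate 3 and EV replicate 4 met at 57.0 FPKM, while the other YAP libraries were above every EV library. The means were 62.3 ± 3.78 FPKM in YAP libraries and 54.1 ± 2.55 FPKM in EV libraries, a log2 difference of 0.20 (SE 0.071). Ece2 (ENSMUSG00000022842, chr16:20629828-20646485), a related metalloprotease, stood at 15.04, 12.7, 17.7 and 11.3 FPKM in YAP replicates 1 to 4 and at 12.1, 18.5, 18.8 and 13.3 FPKM in EV replicates 1 to 4. The groups overlapped widely, with a log2 difference of -0.14 (SE 0.20). Ece2 shares 16093 bases on the same strand with the gene model Gm49333, which has no value in the 8 libraries. Whether that model took reads from Ece2 was not tested.

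**Figure D1:**
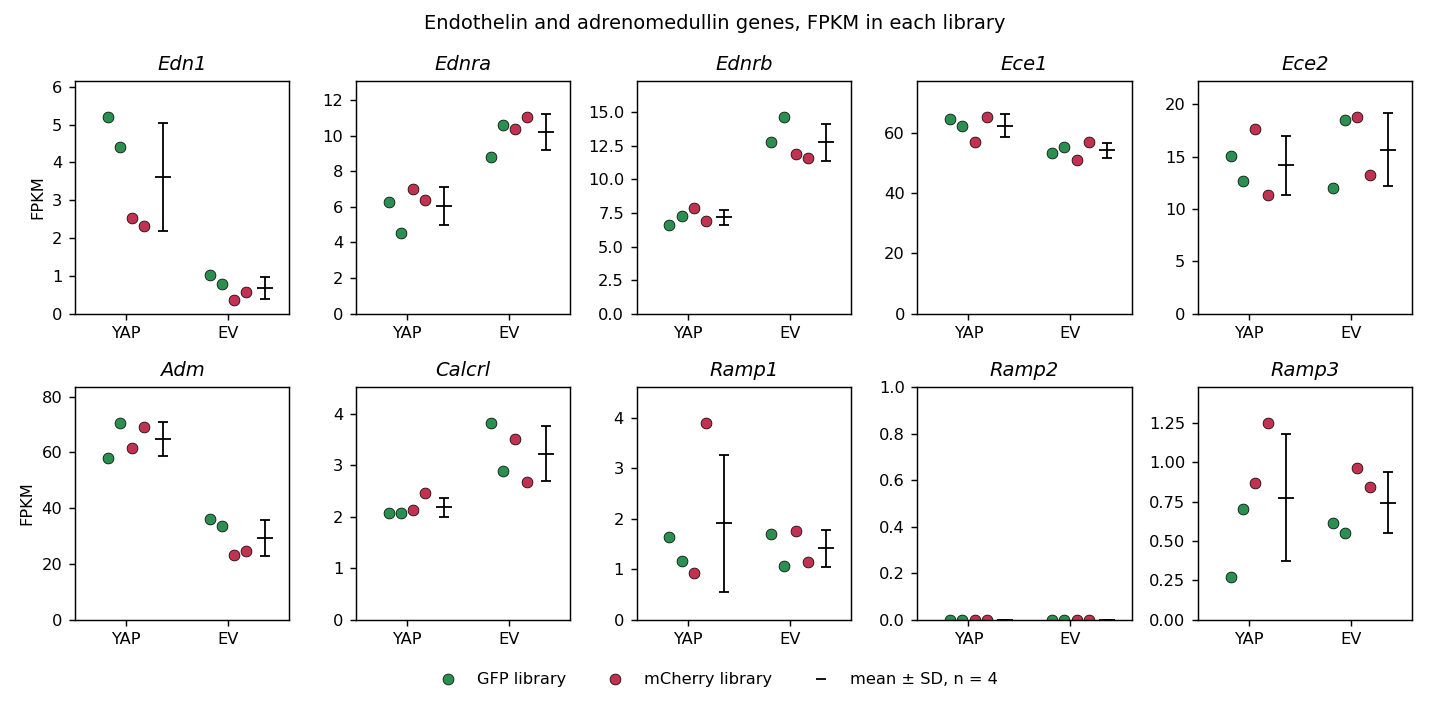
FPKM (vertical axes from 0, linear) of the 10 genes in each library, with the 4 YAP libraries left of the 4 EV libraries, points coloured by reporter and bars giving the mean ± SD (n = 4). Edn1 and Adm are higher and Ednra, Ednrb and Calcrl lower in every YAP library than in any EV library, Ramp1 has 1 high library at 3.90 FPKM, and Ramp2 is listed at 0 throughout.

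The order of the genes by FPKM differed between the groups mainly through the peptides. In YAP libraries Adm was highest at 64.9 FPKM, followed by Ece1 at 62.3, Ece2 at 14.2, Ednrb at 7.17, Ednra at 6.04, Edn1 at 3.61, Calcrl at 2.19, Ramp1 at 1.91, Ramp3 at 0.776 and Ramp2 at 0. The ranges of Adm and Ece1 overlapped, as did those of each neighbouring pair from Ednrb down to Ramp3. Within each YAP library, however, Ednrb stood above Ednra and Ednra above Edn1. In EV libraries Ece1 led at 54.1 FPKM, followed by Adm at 29.4, Ece2 at 15.7, Ednrb at 12.7, Ednra at 10.2, Calcrl at 3.23, Ramp1 at 1.42, Ramp3 at 0.744, Edn1 at 0.685 and Ramp2 at 0. There the ranges of Ece2 and Ednrb and of Ramp3 and Edn1 overlapped, and no other neighbours above Ramp2 did. Edn1 thus stood at rank 6 of 10 in YAP libraries and at rank 9 in EV libraries.

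Ligand and receptor levels were also set against each other within each library. Edn1 over the sum of Ednra and Ednrb was 0.404, 0.374, 0.169 and 0.175 in YAP replicates 1 to 4 and 0.0478, 0.0313, 0.0157 and 0.0250 in EV replicates 1 to 4. The mean ratio was 0.281 ± 0.126 in YAP libraries and 0.0300 ± 0.0135 in EV libraries, a 9.36-fold difference of means with no overlap. Adm over Calcrl was 27.9, 33.9, 29.0 and 28.0 in YAP replicates 1 to 4 and 9.44, 11.6, 6.62 and 9.19 in EV replicates 1 to 4. The mean ratio was 29.7 ± 2.85 in YAP libraries and 9.22 ± 2.05 in EV libraries, a 3.22-fold difference. Both gaps follow from the higher peptide and lower receptor values given above and are no further result. In every library the receptor transcripts of endothelin outnumbered Edn1 per length, and Adm outnumbered Calcrl.

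**Figure D2:**
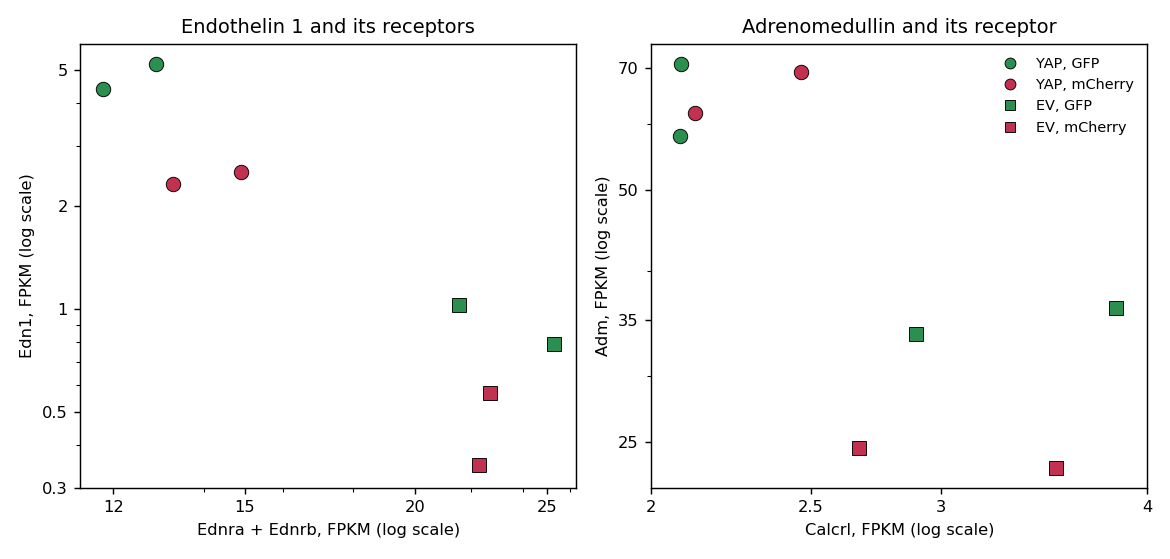
FPKM of each ligand gene (vertical, log scale) against its receptor genes (horizontal, log scale) in 8 libraries, with circles for YAP, squares for EV and colour for the reporter. The left panel sets Edn1 against Ednra + Ednrb and the right panel Adm against Calcrl. In both panels the YAP libraries lie above and left of the EV libraries.

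The reporter gave a contrast that played no part in choosing the genes. Of the 13276 genes tested, 12 (0.0904%) differed between mCherry and GFP libraries at an adjusted p under 0.05 (limma), and 0 of the 8 tested members did, with 1 of the 8 and 1404 of all genes at an unadjusted p under 0.05. That member was Edn1, which averaged 2.42 FPKM in mCherry and 4.81 FPKM in GFP libraries of the YAP group, and 0.459 FPKM in mCherry and 0.911 FPKM in GFP libraries of the EV group. It was lower in each mCherry library than in either GFP library of the same group, with a log2 mCherry minus GFP value of -0.71 (SE 0.19, limma adjusted p = 0.301), so the difference fails the correction. For Adm the log2 difference between mCherry and GFP was -0.25 (SE 0.13, limma adjusted p = 0.555), for Ednra 0.22 (SE 0.12, adjusted p = 0.568) and for Ednrb -0.063 (SE 0.10, adjusted p = 0.847).

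The YAP minus EV difference was also compared between the reporters. Of all genes tested, 9 (0.0678%) had an interaction of vector and reporter at an adjusted p under 0.05 (limma), and 0 of the 8 tested members did, with 1 of the 8 and 1302 of all genes at an unadjusted p under 0.05. That member was Adm, whose YAP mean was 65.4 FPKM and EV mean 23.9 FPKM in mCherry libraries, against a YAP mean of 64.3 FPKM and an EV mean of 34.9 FPKM in GFP libraries. Its YAP minus EV difference was thus 1.43 on the log2 scale in mCherry and 0.87 in GFP libraries, an interaction of 0.56 (SE 0.17, limma adjusted p = 0.411) that fails the correction. The interaction was -0.30 (SE 0.36, adjusted p = 0.802) for Edn1, 0.16 (SE 0.26, adjusted p = 0.858) for Ednra and 0.29 (SE 0.18, adjusted p = 0.638) for Ednrb, all from limma. Within GFP and within mCherry libraries alike, Edn1 and Adm were higher and Ednra, Ednrb and Calcrl lower in both YAP libraries than in both EV libraries. That follows from the lack of overlap over all libraries and is no separate support.

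**Figure D3:**
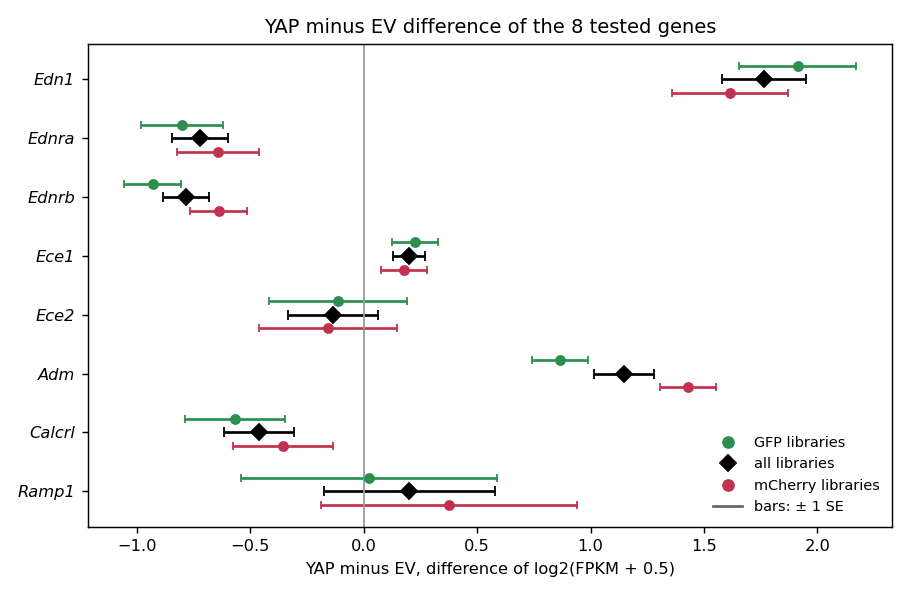
Difference of log2(FPKM + 0.5), YAP minus EV (horizontal axis), for the 8 tested genes in all libraries (black diamonds) and within GFP (green) and mCherry (red) libraries, with bars of ± 1 SE. Each gene lies on the same side of 0 within both reporters, and Adm has the widest gap between them relative to its SE, at 0.87 in GFP and 1.43 in mCherry libraries.

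The authors' deposited table, which pools the libraries of each arm, has its own values for these genes. It lists Edn1 at 4.11 FPKM in the YAP arm and 0.780 FPKM in the EV arm, and Adm at 75.7 FPKM in the YAP arm and 34.5 FPKM in the EV arm. In the authors' deposited table Ednra stood at 6.68 FPKM in the YAP arm and 11.2 FPKM in the EV arm, and Ednrb at 8.17 FPKM in the YAP arm and 14.4 FPKM in the EV arm. These 4 are marked significant in the authors' deposited table, among 7 members it tested, beside 5.95% of all genes it tested. Calcrl, at 3.06 FPKM in the YAP arm and 4.96 FPKM in the EV arm of the authors' deposited table, is not (q = 0.155). The level of Ece1 depended on the table: the authors' deposited table gives 380 FPKM in the YAP arm and 292 FPKM in the EV arm, 5.77 times the mean of the 8 libraries, where the median over all tested genes is 1.14 times and the 95th percentile 2.03 times. The cause of that discrepancy was not tested.

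Other genes of the peptide systems were listed beside the members. In the fit across all genes, 0.934% rose and 0.821% fell. Of 23 listed ligands, receptors, processing and clearance genes, 22 had a unique row and 9 were tested, of which 1 rose, 0 fell and 8 did not pass, with a median log2 difference of 0.058, beside -0.0038 over all genes tested. The 1 that rose was Pcsk6, a proprotein convertase of the furin family, at 11.2 ± 1.56 FPKM in YAP libraries and 5.45 ± 0.900 FPKM in EV libraries (log2 0.98, SE 0.15, limma adjusted p = 0.0295). Its call was lost without any 1 of YAP replicates 1, 2 and 4 and EV replicates 1, 2 and 3 (limma adjusted p = 0.0895 to 0.108), while the log2 difference kept between 0.89 and 1.09. Furin itself, which cuts the endothelin precursor, stood at 38.8 ± 2.42 FPKM in YAP libraries and 39.5 ± 2.64 FPKM in EV libraries.

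Of the other ligand genes, Adm2, the gene of adrenomedullin 2, stood at 4.23 ± 0.597 FPKM in YAP libraries and 5.19 ± 1.82 FPKM in EV libraries, and its mean was above that of Edn1 in both groups. Edn2 was listed above 0 in 1 library, EV replicate 1, at 0.125 FPKM, and Edn3 in 1 library, EV replicate 4, at 0.141 FPKM. Calca, which encodes calcitonin and calcitonin gene-related peptide, was listed at 1.04 FPKM in YAP replicate 4, at 0.856 FPKM in EV replicate 4 and at 0 in the other 6 libraries, and Calcb and the calcitonin receptor gene Calcr were listed at 0 in all 8. Ackr3, a scavenger receptor that binds adrenomedullin, stood at 24.1 ± 1.96 FPKM in YAP libraries and 24.7 ± 0.815 FPKM in EV libraries. Mme, neprilysin, which degrades both peptides, stood at 32.7 ± 5.66 FPKM in YAP libraries and 30.0 ± 3.81 FPKM in EV libraries. Pam, the enzyme that amidates adrenomedullin, stands on 2 rows and was left out of the fit; its main row lists 30.2 to 34.03 FPKM in YAP libraries and 29.3 to 31.6 FPKM in EV libraries.

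Signalling genes downstream of the receptors and other vasoactive systems were tested in the same fit. There 0.934% of all genes rose and 0.821% fell. Of 48 G protein signalling genes 40 were tested, of which 0 rose, 1 fell and 39 did not pass, with a median of 0.016. The 1 that fell was Rgs3, which speeds the turn-off of Gq and Gi signals, at 25.3 ± 1.97 FPKM in YAP libraries and 38.3 ± 1.67 FPKM in EV libraries (log2 -0.59, SE 0.077, limma adjusted p = 0.0173). That call was lost without YAP replicate 1 or 2 or any 1 of the 4 EV replicates (limma adjusted p = 0.0577 to 0.0764). Of 59 genes of other vasoactive systems 23 were tested, of which 1 rose, 0 fell and 22 did not pass, with a median of -0.0089. The 1 that rose was Npr3, the natriuretic peptide clearance receptor, at 8.0 ± 1.62 FPKM in YAP libraries and 3.51 ± 0.534 FPKM in EV libraries (log2 1.08, SE 0.17, limma adjusted p = 0.0319). Each YAP library was above each EV library for Npr3, but its call was lost without any 1 of the 8 libraries (limma adjusted p = 0.0568 to 0.0964).

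Lists of genes that share a known inducer with the peptides were set beside them. Of 26 hypoxia response genes, the class that Adm belongs to, 24 were tested and 0 passed in either direction, with a median of 0.0066 and 6 of 24 at an unadjusted p under 0.05 (limma), beside 14.5% of all genes tested (1926 of 13276). Without YAP replicate 4 or without EV replicate 4, 1 hypoxia response gene passed. Vegfa, named after its values were seen, stood at 105, 131, 123 and 127 FPKM in YAP replicates 1 to 4 and at 56.5, 59.5, 71.3 and 142 FPKM in EV replicates 1 to 4, so that EV replicate 4 was above every YAP library. Of 13 AP-1 and immediate early genes 11 were tested and 0 passed, with a median of 0.18 and 4 of 11 at an unadjusted p under 0.05 (limma), beside the same 14.5% of all genes. Without YAP replicate 3, 1 AP-1 or immediate early gene passed. The choice and response of the 22 YAP targets in these data were known beforehand. Of them 6 rose, beside 0.934% of all genes tested, 1 fell, beside 0.821%, and 15 did not pass, with a median of 0.25. Those that rose included Cyr61, Ctgf, Amotl2, Nuak2 and Ankrd1, and the 1 that fell was Igfbp3, a growth factor binding protein gene. With a library left out 3 to 7 of the 22 were called, with 3 without YAP replicate 2 or EV replicate 1 and 4 without YAP replicate 1, EV replicate 2 or EV replicate 4. Nuak2 lost its call in 7 and Ankrd1 in 6 of the 8 leave-outs.

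**Figure D4:**
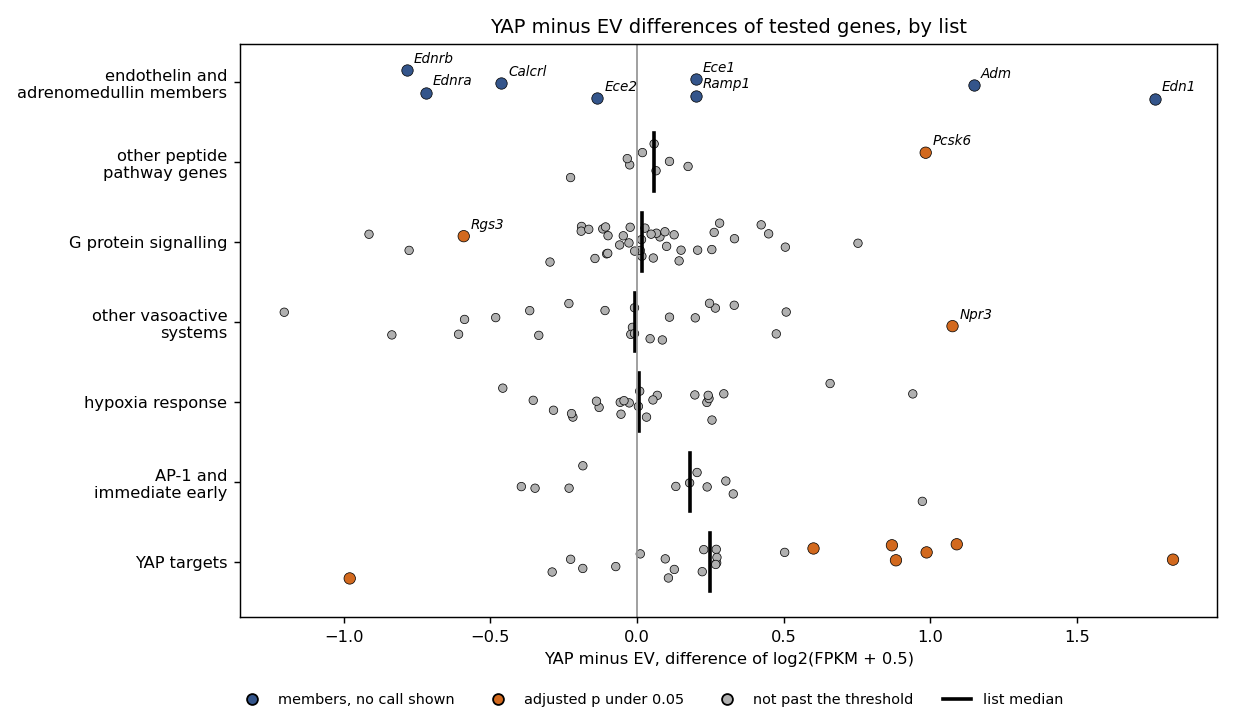
Difference of log2(FPKM + 0.5), YAP minus EV (horizontal axis), of each tested gene in 7 lists (rows). Blue points are the 8 tested endothelin and adrenomedullin genes, orange points other genes with an adjusted p under 0.05 over all genes, grey points the rest, and black bars the list medians. Outside the YAP targets the lists hold 3 orange genes, Pcsk6, Rgs3 and Npr3.

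The genes with the profile most like that of each peptide gene were found by Pearson's r of log2(FPKM + 0.5) over the 8 libraries, a description in which all points share the vector groups. For Edn1 they were Msln (r = 0.995), Slc4a7 (0.978), Pdia5 (0.978), Ptprq (0.976) and Flnc (0.973). Msln, which encodes mesothelin, a surface protein of mesothelial cells, stood at 27.8, 27.5, 19.7 and 18.6 FPKM in YAP replicates 1 to 4 and at 10.97, 10.2, 7.57 and 8.09 FPKM in EV replicates 1 to 4. Like Edn1, it was higher in YAP than in EV libraries and, within each group, higher in GFP than in mCherry libraries. For Adm they were Lipg (r = 0.987), Rasa4 (0.985), Fbxl4 (0.978), Cyr61 (0.977) and Mapk13 (0.977). Lipg, endothelial lipase, stood at 7.12, 9.11, 6.87 and 7.59 FPKM in YAP replicates 1 to 4 and at 2.85, 2.76, 1.67 and 2.23 FPKM in EV replicates 1 to 4.

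Several of these genes are known from cell types other than fibroblasts, so markers of those types were summed in each library. Calls of single markers stand beside 0.821% of all genes tested that fell and 0.934% that rose. The 16 endothelial markers, a type known for Edn1, Calcrl and Ramp2, summed to 24.5 to 50.5 FPKM in YAP libraries and 22 to 40.8 FPKM in EV libraries. Of the 3 tested, 1 fell, the transcription factor gene Erg, at 10.3 ± 0.874 FPKM in YAP libraries and 17.3 ± 1.57 FPKM in EV libraries (limma adjusted p = 0.0170). The endothelial receptor genes Kdr and Tek, below the filter and named after their values were seen, were higher in every YAP library than in any EV library. Kdr stood at 1.06, 1.20, 1.14 and 1.28 FPKM in YAP replicates 1 to 4 and at 0.577, 0.887, 0.349 and 0.395 FPKM in EV replicates 1 to 4. Tek stood at 1.40, 2.28, 1.10 and 0.870 FPKM in YAP replicates 1 to 4 and at 0.198, 0.213, 0.628 and 0.481 FPKM in EV replicates 1 to 4. Flt1, which was tested and did not pass, stood at 11.9 ± 3.05 FPKM in YAP libraries and 8.55 ± 2.65 FPKM in EV libraries. Egfl7, named after its values were seen, was also tested and did not pass. It was listed at 26.2 FPKM in YAP replicate 2, at 12.1 FPKM in EV replicate 3 and at 0 in the other libraries. The highest endothelial sum of each group was that of the library with this Egfl7 value. The endothelial genes Tie1, Cldn5 and Sox17 were listed at 0 in all 8 libraries, Cdh5 reached at most 0.112 FPKM in YAP libraries and 0.0744 FPKM in EV libraries, and Pecam1 at most 0.0777 FPKM in YAP libraries and 0.520 FPKM in EV libraries. Of 4 lymphatic endothelial markers 3 had a unique row, and they summed to 2.24 to 3.65 FPKM in YAP libraries and 1.65 to 2.64 FPKM in EV libraries.

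The 12 smooth muscle and pericyte markers, a type known for Ednra, summed to 1044 to 1561 FPKM in YAP libraries and 1535 to 1623 FPKM in EV libraries. Of the 7 tested, 2 fell: the calponin gene Cnn1, at 21.5 ± 6.66 FPKM in YAP libraries and 43.1 ± 3.97 FPKM in EV libraries (limma adjusted p = 0.0223), and the adhesion molecule gene Mcam, at 19.1 ± 2.82 FPKM in YAP libraries and 28.4 ± 0.984 FPKM in EV libraries (adjusted p = 0.0485). The 12 melanocyte and Schwann cell markers, types known for Ednrb, summed to 3.04 to 5.16 FPKM in YAP libraries and 3.89 to 6.51 FPKM in EV libraries, with Dct, Tyr, Tyrp1 and Pmel listed at 0 in all 8. The 15 measured macrophage markers summed to 158 to 375 FPKM in YAP libraries and 299 to 426 FPKM in EV libraries. Of the 13 tested, 2 fell, the complement genes C1qa, at 24.6 ± 6.49 FPKM in YAP libraries and 48.4 ± 12.3 FPKM in EV libraries (limma adjusted p = 0.0169), and C1qc, at 24.0 ± 5.69 FPKM in YAP libraries and 44.8 ± 8.18 FPKM in EV libraries (adjusted p = 0.0353). Of those 13 macrophage markers, 12 had a log2 difference below 0, beside 6733 of all 13276 genes tested, and nothing is read from that count. Of all genes tested, 0.821% fell and 0.934% rose. The 10 epithelial markers summed to 21.6 to 49.3 FPKM in YAP libraries and 11.5 to 21.8 FPKM in EV libraries, and 1 of the 3 tested rose, the keratin gene Krt7, at 6.94 ± 3.31 FPKM in YAP libraries and 0.956 ± 0.341 FPKM in EV libraries (limma adjusted p = 0.0263). Like Edn1, Krt7 passed the filter only through the YAP libraries, so its call is no independent support. The other 2 tested, Krt19 and Krt18, did not pass and were named after their values were seen. Krt19 was the highest of the 3, at 22.5 ± 8.45 FPKM in YAP libraries and 11.2 ± 4.36 FPKM in EV libraries. Krt18 had a log2 difference of -0.34 (SE 0.23). Epcam, Krt5 and Esrp1 were listed at 0 in all 8 libraries. Calls of these marker genes were lost without 4 to 8 of the 8 libraries in turn, and the part of these markers in the values of Edn1, Adm and the receptor genes was not tested.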

How the data were processed

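RNA was measured in 8 MEF libraries, 4 YAP and 4 EV, made with a stranded mRNA kit per the labels' protocols. Reads were handled with TopHat and Cufflinks on mm10, per the submitters' processing notes. The annotation release and whether counting used strand are not given in the sources used here. The authors deposited FPKM per library, and a table of pooled arms with FPKM, fold changes on a log2 scale and p-values and q-values, per the file headers. Their sheet of significant genes was not used here. FPKM carry no absolute depth, and no interval from counting error is given.

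Of 48641 rows, 114 rows of 49 repeated identifiers were left out. Genes with a mean of at least 1 FPKM were tested on log2(FPKM + 0.5), a scale that understates changes of low genes, with limma 3.58.1 (R 4.3.3), vector and reporter as terms, a variance trend and Benjamini-Hochberg adjustment over all 13276 genes. A second fit added their interaction. The fit was checked on simulated data. Python 3.11.15 ran the table steps (numpy 2.4.6, pandas 2.3.3) and matplotlib 3.10.9 drew the figures. The members and lists were chosen with earlier results of these data known. The rule for naming genes took every member, 10 fixed genes of the peptide pathways, Yap1 and 4 of its targets, up to 6 genes of each list with the smallest p past the threshold, and the 5 named genes most correlated with Edn1 and with Adm. Promoters came from RefSeq on GRCm38.p6. Alternatives were other pseudocounts, filters, scalings and model terms, a replicate block, and each library left out.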

Additional observations from a re-analysis of the deposited data

Results flagged for a closer look

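Calcrl stood at 2.47 FPKM in YAP replicate 4, against 2.08, 2.08 and 2.13 FPKM in YAP replicates 1 to 3, and its gap to the nearest of them took up more of the group's range than Dixon's critical value for 4 samples allows. The EV libraries stood at 3.83, 2.89, 3.52 and 2.67 FPKM. Without YAP replicate 4 the log2 difference of Calcrl, YAP minus EV, was -0.52, beside -0.46 with it. Some groups are picked out this way by chance, and this was the one group among the members that was.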

How the results depend on the processing

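Edn1 and Adm were higher and Ednra, Ednrb and Calcrl lower in YAP libraries under all 17 alternatives. The groups of these genes do not overlap. Another pseudocount, filter or model term, or a library left out, therefore could not reverse their direction, which adds no support. Log2 differences were 1.42 to 2.24 for Edn1 and 1.06 to 1.26 for Adm. They were -0.79 to -0.62 for Ednra, -0.85 to -0.72 for Ednrb and -0.55 to -0.37 for Calcrl. Ramp1, whose groups overlap, ran from -0.16 to 0.49. The number of genes called between YAP and EV, 233 (124 higher, 109 lower), was 146 (75 higher, 71 lower) with no filter, 150 (80 higher, 70 lower) without the reporter term, and had 78 higher with no variance trend. With a library left out it was 51 to 113, with 25 to 56 higher and 21 to 58 lower. The replicate numbers did not pair the libraries: deviations of same-numbered libraries from their group means correlated across genes at 0.052, 0.021, -0.015 and 0.090. With a replicate block the calls were 15, with 6 higher and 9 lower; 0 of the 8 members were called, and Pcsk6, Rgs3 and Npr3 lost their calls (limma adjusted p = 0.0746, 0.136 and 0.171). The 9 interaction calls were 23 with no filter, 18 with a filter at 0.1 FPKM, 15 with no variance trend and 8 to 39 with a library left out; the 12 reporter calls ranged from 10 to 14. With a library left out, the interaction of Ednra ran from -0.059 (without YAP replicate 2) to 0.38, and the mCherry minus GFP difference of Ednrb from -0.13 to 0.0053 (without EV replicate 2); neither was past the threshold in any setting. The causes were not tested. With 4 libraries a group and no absolute depths, small differences of low genes such as Ramp1 and Ramp3 were not detectable.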
